A study of Homo sapiens with 8 samples.

Results

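The transcriptional response of DND-41 cells to 8 h of ACBI-1 was measured in 4 of the 8 libraries of the series, and the comparison was chosen by its cell line and treatment labels, not by any measured value. DND-41 is a human line of T-cell acute lymphoblastic leukaemia (T-ALL), grown in RPMI-1640 medium. There were 2 libraries from cells given 100 nM ACBI-1 and 2 from cells given the solvent DMSO, all taken at 8 h. The other 4 libraries hold the same 2 treatments in MOLT-4, another T-ALL line, and were used only where the DND-41 response was set against them. Of 63677 genes in the count table, 14008 had enough counts to be tested. Whether the libraries of a group came from separate cultures is not stated in the labels, and p-values therefore reflect only how far these libraries differ, which can be technical. Results from 1 line, 1 dose and 1 time hold for those alone.

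ACBI-1 is a degrader: it carries at one end a group that binds a bromodomain found in SMARCA2, SMARCA4 and PBRM1, and at the other a group that recruits VHL, a ubiquitin ligase, so that the bound protein is marked for the proteasome. BAF complexes contain either SMARCA2 or SMARCA4 as their motor and use ATP to slide or evict nucleosomes and keep enhancers and promoters open. PBRM1 belongs to the PBAF form of the complex. In T-cell precursors BAF works with lineage transcription factors at the enhancers of T-cell genes.

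The question was which transcripts rise and fall within 8 h of the degrader. Levels are given as CPM, the read count of a gene scaled to a common library size, and fold changes are ACBI-1 over DMSO on the log2 scale with a standard error. A gene was called at an adjusted p under 0.05 from edgeR's quasi-likelihood test. CPM is a share of each library, so a change in total RNA per cell cannot be seen, and in bulk RNA fewer cells of a kind and less RNA per cell cannot be told apart.

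Library totals ran from 19860759 to 20033299 counts, at which 3 counts equal about 0.15 CPM. The first principal component, 80.6% of the variance, separated ACBI-1 from DMSO. Mitochondrially encoded transcripts took 15.5% and 11.8% of the ACBI-1 libraries and 12.1% and 13.2% of the DMSO libraries, so their share did not separate the groups. Pearson's r of log2 CPM was 0.9937 for the ACBI-1 pair and 0.9953 for the DMSO pair. The ACBI-1 libraries differed more from each other than the DMSO libraries did. On the second component, 11.5% of the variance, they lay at 17.8 and -17.7, against 4.1 and -4.2 for DMSO. Of 13 markers of T-ALL cells and thymocytes, 12 were tested, of which 8 fell and 3 rose, and the 13 summed to 5408 and 5456 CPM with DMSO and 5798 and 5479 with ACBI-1. The myeloid, erythroid and stromal marker lists each summed to at most 0.3 CPM in every library, and CD33, CSF1R, HBB, EPCAM and PECAM1 had no count. Of 7 B-lineage markers 3 were tested and all 3 fell, from 1676 and 1690 to 1008 and 1059 summed CPM. Nearly all of that sum was CD79A, at 1654 and 1671 CPM with DMSO and 995 and 1042 with ACBI-1, while MS4A1 and PAX5 had no count.

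The targets of ACBI-1 are proteins, so their transcripts do not check the labels. SMARCA4 RNA stood at 486 and 482 CPM with DMSO and at 602 and 623 with ACBI-1, a rise of 0.34 ± 0.06. SMARCA2 RNA stood at 66.9 and 72.9 CPM with DMSO and at 58.1 and 64.3 with ACBI-1, a change of -0.19 (adjusted p = 0.0433). The SMARCA2 call ended without ACBI-1 replicate 1 (-0.13), without DMSO replicate 2 (-0.13), under library size alone (-0.17), with no filter (-0.20) and with DESeq2 (-0.19). PBRM1 RNA overlapped between the groups, at 164 and 166 CPM with DMSO and 161 and 183 with ACBI-1, and was not called (0.06). One library set its sign: the change was 0.15 and called without ACBI-1 replicate 1, and -0.03 without ACBI-1 replicate 2.

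Falls were larger than rises. Of the tested genes 2807 (20%) rose and 3249 (23.2%) fell, and the median change over all tested genes was 0.01. At 2-fold or more the counts were 278 higher (1.98%) and 898 lower (6.41%), and at 8-fold or more (log2 of 3) 3 higher and 26 lower. The rises were mostly small: 1846 of them were under 0.5 on the log2 scale, against 1362 of the falls. Fewer rises and fewer falls were called on leaving out either DMSO library, and more of both on leaving out either ACBI-1 library. With a DMSO library left out, only the ACBI-1 pair is left to measure spread. The cause was not tested. In the authors' deposited table, all 6056 genes called here had a fold change of the same sign, and 4053 of them also passed an adjusted p of 0.05 there.

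**Figure D1:**
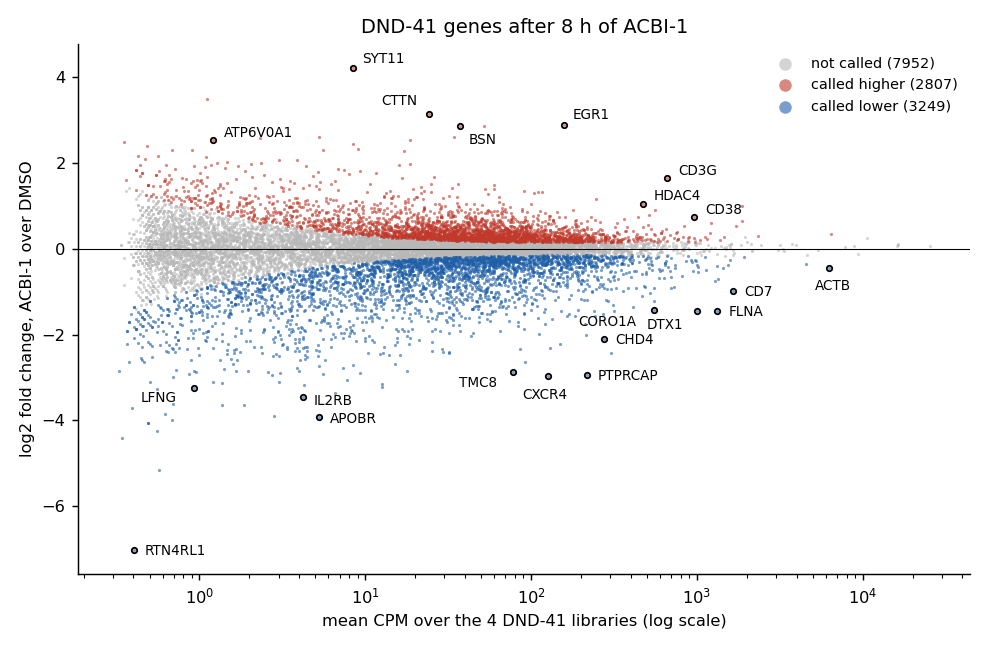
Log2 fold change of each tested DND-41 gene (ACBI-1 over DMSO, vertical axis) against its mean CPM over the 4 libraries (horizontal axis, log scale), with 2807 genes called higher in red, 3249 called lower in blue and the rest in grey. The points reach further below 0 than above it, and the genes named in the plot are circled.

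The proximal promoters of 4 strongly changed genes are shown because they span both directions and different base compositions. They were chosen after their values were seen, and CORO1A took the place of RASSF2, whose window held none of the motifs searched. Each run is the 250 bases before the gene's start in RefSeq on GRCh38.p14, read 5′ to 3′ on the gene's strand. Capitals mark matches to the motifs listed further down.
SYT11 (rose, chr1:155859317-155859566, + strand): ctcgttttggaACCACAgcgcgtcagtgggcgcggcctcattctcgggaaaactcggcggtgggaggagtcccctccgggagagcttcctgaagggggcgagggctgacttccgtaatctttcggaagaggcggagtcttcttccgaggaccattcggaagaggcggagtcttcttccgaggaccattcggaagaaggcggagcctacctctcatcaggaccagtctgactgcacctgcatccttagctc
EGR1 (rose, chr5:138465229-138465478, + strand): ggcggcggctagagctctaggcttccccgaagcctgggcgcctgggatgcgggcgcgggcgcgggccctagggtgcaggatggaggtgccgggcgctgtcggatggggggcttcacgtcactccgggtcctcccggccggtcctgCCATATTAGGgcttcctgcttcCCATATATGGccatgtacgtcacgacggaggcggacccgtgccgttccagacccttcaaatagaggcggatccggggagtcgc
CXCR4 (fell, chr2:136118150-136118399, - strand): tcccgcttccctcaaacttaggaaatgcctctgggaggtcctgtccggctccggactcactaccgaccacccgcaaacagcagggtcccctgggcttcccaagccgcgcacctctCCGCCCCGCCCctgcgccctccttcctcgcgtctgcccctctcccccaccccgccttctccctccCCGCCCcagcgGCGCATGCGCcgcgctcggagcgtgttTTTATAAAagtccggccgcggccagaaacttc
CORO1A (fell, chr16:30183352-30183601, + strand): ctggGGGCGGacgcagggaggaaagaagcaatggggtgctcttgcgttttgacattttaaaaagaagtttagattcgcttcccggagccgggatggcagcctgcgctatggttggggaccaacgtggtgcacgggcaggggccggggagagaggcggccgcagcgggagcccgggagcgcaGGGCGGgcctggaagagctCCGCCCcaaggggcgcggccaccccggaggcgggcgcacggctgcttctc

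Ligands and receptors of the tumour necrosis factor (TNF) family fell in number and size. Of 26 tested members 16 fell (61.5%), 10 of them 2-fold or more, and 1 rose (3.85%), with a median change of -0.91. Over all tested genes 23.2% fell, 6.41% by 2-fold or more, and 20% rose. These are the shares to set beside each list count that follows. TNFRSF1B, a TNF receptor of lymphocytes, stood at 11.96 and 12.06 CPM with DMSO and at 1.32 and 1.02 with ACBI-1, a change of -3.35 ± 0.18 (adjusted p = 3.44e-09). TNF itself stood at 35.1 and 35.9 CPM with DMSO and at 10.9 and 12.6 with ACBI-1. TNFRSF8, the receptor CD30, fell from 41.05 and 41.9 CPM to 15.5 and 13.9. TNFSF10, the death ligand TRAIL, changed by -1.42 ± 0.08, and LTA, LTB, TNFSF8 and CD70 by -1.46, -0.57, -1.06 and -0.94. The groups did not overlap for any of these 8 genes, nor for 70.3% of all tested genes, so with 2 libraries a group non-overlap alone says little. The 1 rise was TNFSF13, the ligand APRIL, at 3.70 and 3.97 CPM with DMSO and 6.52 and 5.50 with ACBI-1, and it was not called with DESeq2 (log2 fold change 0.64).

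Cytokine receptors fell in number but seldom by much. Of 27 tested, 14 fell (51.9%) and 4 rose (14.8%), and 1 fall reached 2-fold. That fall was IL2RB, the beta chain shared by the receptors for interleukin-2 and interleukin-15, which went from 7.56 and 7.94 CPM to 0.814 and 0.584 (-3.46 ± 0.23). IL2RG, the common gamma chain, stood at 684 and 755 CPM with DMSO and at 394 and 366 with ACBI-1. IL6ST, the signal-transducing chain gp130, rose from 4.16 and 3.46 to 7.02 and 7.30 CPM. Downstream of these receptors JAK3, the kinase that binds the common gamma chain, fell from 20.1 and 19.2 to 6.26 and 4.91 CPM. STAT5A, a signal transducer of cytokine receptors, changed by -1.91 ± 0.23. Over the whole JAK, STAT, SOCS and PIM list 13 of 28 fell (46.4%) and 9 rose (32.1%), with a median of -0.03. All 3 interleukins with enough counts fell, among them IL16, a chemoattractant of CD4+ cells, from 48.9 and 48.0 to 10.6 and 8.66 CPM.

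Chemokine and lymphoid G-protein-coupled receptors (GPCRs) fell more often than they rose. Of 29 tested, 15 fell (51.7%, 10 of them at 2-fold or more) and 5 rose (17.2%, 1 of them at 2-fold or more). The median was -0.52. CXCR4, the receptor of the chemokine CXCL12, stood at 232 and 214 CPM with DMSO and at 29.7 and 27.8 with ACBI-1, a change of -2.96 ± 0.07. CCR7, which guides T cells to lymph nodes, fell from 10.4 and 10.1 to 2.75 and 2.43 CPM. S1PR4 fell by 1.51 on the log2 scale, while S1PR2 rose from 0.300 and 0.611 to 1.53 and 1.22 CPM. S1PR2 was not called without DMSO replicate 1 (1.15) or with DESeq2 (1.59). APOBR, which is on the list but is a lipoprotein receptor and no GPCR, fell from 9.61 and 10.3 to 0.611 and 0.681 CPM. Among 17 tested receptor tyrosine kinases 9 fell (52.9%), 6 of them 2-fold or more, and 1 rose (5.88%). FGFR1 and FGFR3, receptors of fibroblast growth factors, changed by -2.23 ± 0.11 and -3.06 ± 0.16. PDGFRB, a receptor of platelet-derived growth factor, fell from 52.8 and 55.2 to 8.55 and 11.6 CPM.

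The T-cell receptor is an antigen-binding chain pair joined to the CD3 chains, whose tails recruit the kinases LCK and ZAP70 and through them adaptors and calcium and RAS signalling. Proximal signalling genes fell in DND-41: of 42 tested, 34 (81%) fell and 2 rose, with 13 falls of 2-fold or more and a median of -0.71. VAV1, a guanine nucleotide exchange factor, went from 78.1 and 72.4 to 25.4 and 27.5 CPM. ZAP70 went from 351 and 364 to 189 and 191 CPM. Negative regulators fell as well: UBASH3A and UBASH3B, phosphatases that dampen the receptor, changed by -1.79 and -1.69, and RASAL3, a RAS GTPase-activating protein, by -1.86. The 2 rises were CBLB, a ubiquitin ligase that restrains the pathway, at 0.51 ± 0.08, and SOS1, a RAS exchange factor, at 0.36 ± 0.07. The groups did not overlap for any gene named here, against 70.3% of all tested genes.

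The chains of the receptor did not follow its signalling genes. Of 8 tested, 4 rose (50%) and 3 fell (37.5%). CD3G stood at 319 and 327 CPM with DMSO and at 1033 and 983 with ACBI-1, a change of 1.64 ± 0.06. CD3E rose from 1422 and 1488 to 2324 and 2233 CPM, CD3D by 0.47 ± 0.07 and TRDC, the constant part of the delta chain, by 0.46 ± 0.09. CD247, the zeta chain, fell from 133 and 130 to 99.2 and 94.3 CPM, and TRGC2, a gamma-chain constant gene, by 1.38 on the log2 scale. TRBC2 changed by -0.28 ± 0.06 and lost its call without DMSO replicate 1 (-0.27). TRBC2 and TRGC2 have near-identical copies, so the counting could have split their reads.

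Other T-cell surface antigens mostly fell, 20 of 35 tested (57.1%) against 5 that rose (14.3%), with a median of -0.43. PTPRCAP, which binds the phosphatase CD45, stood at 383 and 385 CPM with DMSO and at 50.8 and 49.7 with ACBI-1 (-2.93 ± 0.06). The tetraspanin CD82 went from 153 and 135 to 28.4 CPM in both ACBI-1 libraries, and the adhesion receptor CD48 changed by -2.39 ± 0.10. CD7, a marker of T-ALL, fell from 2185 and 2213 to 1144 and 1087 CPM. CD38, an NAD-consuming ectoenzyme, rose from 723 and 719 to 1198 and 1207 CPM, and the activation marker CD69 from 5.46 and 4.99 to 10.5 and 11.4. CD1C, which presents lipids to T cells, stood at 1.70 and 2.70 CPM with DMSO and 3.31 and 5.55 with ACBI-1, and its call ended without ACBI-1 replicate 2 (0.59). Of 8 tested genes of cytotoxic granules and killer cells, 6 fell and none rose. NKG7, a granule membrane protein, went from 29.6 and 27.8 to 6.72 and 8.51 CPM, and PRF1, the pore-forming perforin, from 8.76 and 10.8 to 1.83 and 0.778.

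**Figure D2:**
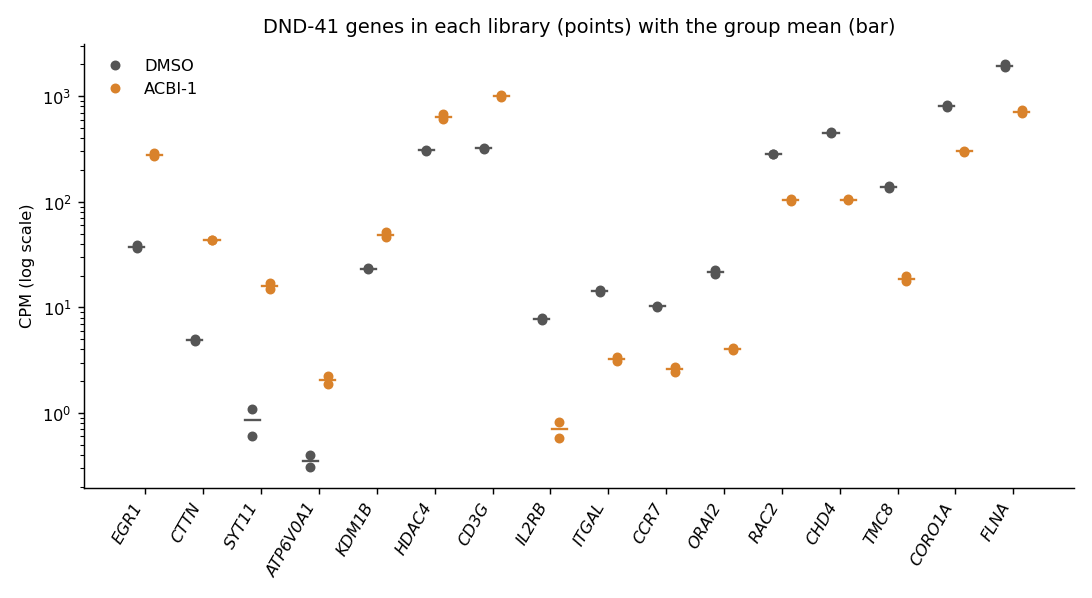
CPM (vertical axis, log scale) of 16 DND-41 genes in each library, with DMSO in grey, ACBI-1 in orange and a bar at the mean of each group of 2. For every gene drawn, both ACBI-1 libraries lie on the same side of both DMSO libraries, which holds for 70.3% of all tested genes; CD3G stands at 1033 and 983 CPM with ACBI-1 against 319 and 327 with DMSO.

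Genes of adhesion and the cytoskeleton fell in larger numbers than rose. Of 24 tested integrins and their ligands 13 fell (54.2%) and 4 rose (16.7%). ITGAL, the alpha chain of the leukocyte integrin LFA-1, stood at 14.7 and 14.1 CPM with DMSO and at 3.10 and 3.36 with ACBI-1. ITGA4 went from 131 and 114 to 58.0 and 58.7 CPM, and FERMT3, the kindlin that activates integrins in blood cells, from 200 and 190 to 86.5 and 83.0. ITGAE, the alpha chain of the integrin that binds E-cadherin, rose from 31.2 and 31.7 to 84.0 and 92.6 CPM, a change of 1.49 ± 0.07. ITGB5, at 0.350 and 0.560 CPM with DMSO and 1.02 and 1.07 with ACBI-1, lost its call without DMSO replicate 1 (0.88), without DMSO replicate 2 (1.56), without ACBI-1 replicate 2 (1.15) and with DESeq2 (1.20).

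Of 42 tested genes of the leukocyte actin cytoskeleton 26 fell (61.9%) and 5 rose (11.9%), with a median of -0.35. FLNA, the actin cross-linker filamin A, went from 1878 and 2010 to 690 and 740 CPM. CORO1A, a coronin of leukocytes, went from 796 and 819 to 297 and 303 CPM, and FMNL1, a formin, changed by -1.45 ± 0.06. ACTB itself changed by -0.45 ± 0.08. CTTN, the cortical actin protein cortactin, moved against the list from 4.76 and 5.04 CPM to 43.1 and 43.5 CPM (3.14 ± 0.10, adjusted p = 1.77e-11). RAC2, the Rac of blood cells, stood at 281 and 282 CPM with DMSO and at 102 and 105 with ACBI-1, while TIAM1, a Rac exchange factor, rose by 0.74 ± 0.09.

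Ion channels included some of the steeper falls. Of 37 tested potassium and calcium channel genes 21 fell (56.8%, 10 of them at 2-fold or more) and 3 rose (8.11%). The median was -0.52. ORAI2, a subunit of the store-operated calcium channel, went from 20.5 and 22.4 to 3.92 and 4.09 CPM, and ORAI1 from 44.2 and 41.3 to 20.4 and 20.9. STIM2, the calcium sensor that opens ORAI channels, rose by 0.42 ± 0.07. TMC6 and TMC8, neighbours that encode transmembrane proteins of the endoplasmic reticulum, went from 32.4 and 30.3 to 4.07 and 4.67 CPM and from 140 and 134 to 17.7 and 19.7 CPM.

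Transcription factors of the lymphoid lineage were mixed. In the list of lymphoid zinc-finger and T-cell commitment factors 15 of 30 fell (50%) and 5 rose (16.7%), with a median of -0.26. BCL11B, required for T-cell commitment, went from 71.2 and 72.8 to 31.0 and 35.1 CPM, and TCF7, the T-cell factor TCF-1, from 99.01 and 83.7 to 42.4 and 36.8. LEF1, a relative of TCF7, changed by 0.28 ± 0.07, but its call ended without DMSO replicate 1 (0.24). Of 17 tested ETS factors 8 fell (47.1%) and 5 rose (29.4%). ELF4, FLI1 and ETS2 changed by -1.67, -1.28 and -1.18. GABPA and its partner GABPB1, which form the ETS factor of many housekeeping promoters, changed by 0.84 ± 0.07 and 0.61 ± 0.07.

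Single factors moved by more than their lists. EGR1, an early growth response factor, went from 36.4 and 38.6 CPM with DMSO to 269 and 287 CPM with ACBI-1, and EGR2 from 2.05 and 1.73 to 8.70 and 9.88. The inhibitors of E proteins split: ID3 rose from 56.3 and 45.6 to 133 and 128 CPM, and ID1 fell from 3.65 and 3.10 to 0.865 and 1.46. TLX3, the homeobox oncogene expressed in DND-41, went from 336 and 316 to 98.7 and 94.1 CPM. WT1, a zinc-finger factor, went from 25.6 and 26.8 to 4.43 and 3.70 CPM, and the basic leucine zipper factor BATF3 changed by -2.59 ± 0.18. For none of these 7 genes did the groups overlap, against 70.3% without overlap over all tested genes. Zinc-finger genes named ZNF leaned the other way, with 142 of 434 tested protein-coding members higher (32.7%), 54 lower and a median of 0.15.

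Lists of chromatin regulators differed in direction, with small medians. Of 51 histone methyltransferases and demethylases 23 rose (45.1%) and 7 fell, with a median of 0.18 that was 0.095 without ACBI-1 replicate 2. KDM1B, a demethylase of lysine 4 of histone H3, stood at 23.5 and 22.9 CPM with DMSO and at 46.2 and 51.3 with ACBI-1. KDM4B, a demethylase of lysine 9, fell from 70.6 and 69.0 to 26.5 and 26.6 CPM. Among 36 remodellers of the CHD, ISWI, INO80 and NuRD families 11 rose (30.6%) and 8 fell (22.2%, near the 23.2% over all tested genes). Of these changes 1 reached 2-fold. CHD4, the ATPase of NuRD, went from 445 and 453 to 103 and 107 CPM, a change of -2.10 ± 0.06 (adjusted p = 6.83e-12). Of 33 histone acetyltransferases and deacetylases 8 rose and 8 fell, with a median of 0.03. Each 8 is 24.2%, near the 20% that rose and the 23.2% that fell over all tested genes. HDAC4, a class IIa deacetylase, rose from 305 and 310 to 605 and 673 CPM, while HDAC7 of the same class changed by -0.76 ± 0.07. Of 60 Mediator and elongation factors 22 rose and 6 fell, with a median of 0.08. Of 23 tested protein-coding histone genes 6 fell and none rose. The 6 are 26.1%, near the 23.2% that fell over all tested genes. The median of -0.21 was -0.39 without ACBI-1 replicate 1 and -0.09 without ACBI-1 replicate 2. Among the 6 was H1F0, a linker histone, which went from 281 and 301 to 131 and 123 CPM.

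Metabolic genes fell in several lists. Of 29 glycolysis genes 18 fell (62.1%) and 1 rose (3.45%), with a median of -0.26. HK1, a hexokinase, went from 99.8 and 108 to 36.6 and 36.2 CPM, and SLC16A3, a lactate exporter, from 12.8 and 11.04 to 2.90 and 3.21. The 1 rise was PFKFB4, which makes the activator fructose 2,6-bisphosphate, from 2.05 and 2.49 to 7.28 and 7.44 CPM. Of 45 genes of fatty acid and lipid handling 23 fell (51.1%) and 10 rose (22.2%). FADS1, a desaturase, went from 129 and 127 to 39.8 and 38.3 CPM. In polyamine metabolism 7 of 13 fell, including ODC1, its rate-limiting enzyme, at -0.81 ± 0.06. SLC1A4 and SLC1A5, carriers of neutral amino acids, changed by -1.31 and -0.91. Cytosolic ribosomal proteins were called higher for 21 of 84 and lower for none. The 21 are 25.0%, near the 20% that rose over all tested genes, while 23.2% of all tested genes fell. The median of the list was 0.13, with no change of 2-fold. That median was 0.03 without ACBI-1 replicate 1 and 0.22 without ACBI-1 replicate 2.

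**Figure D3:**
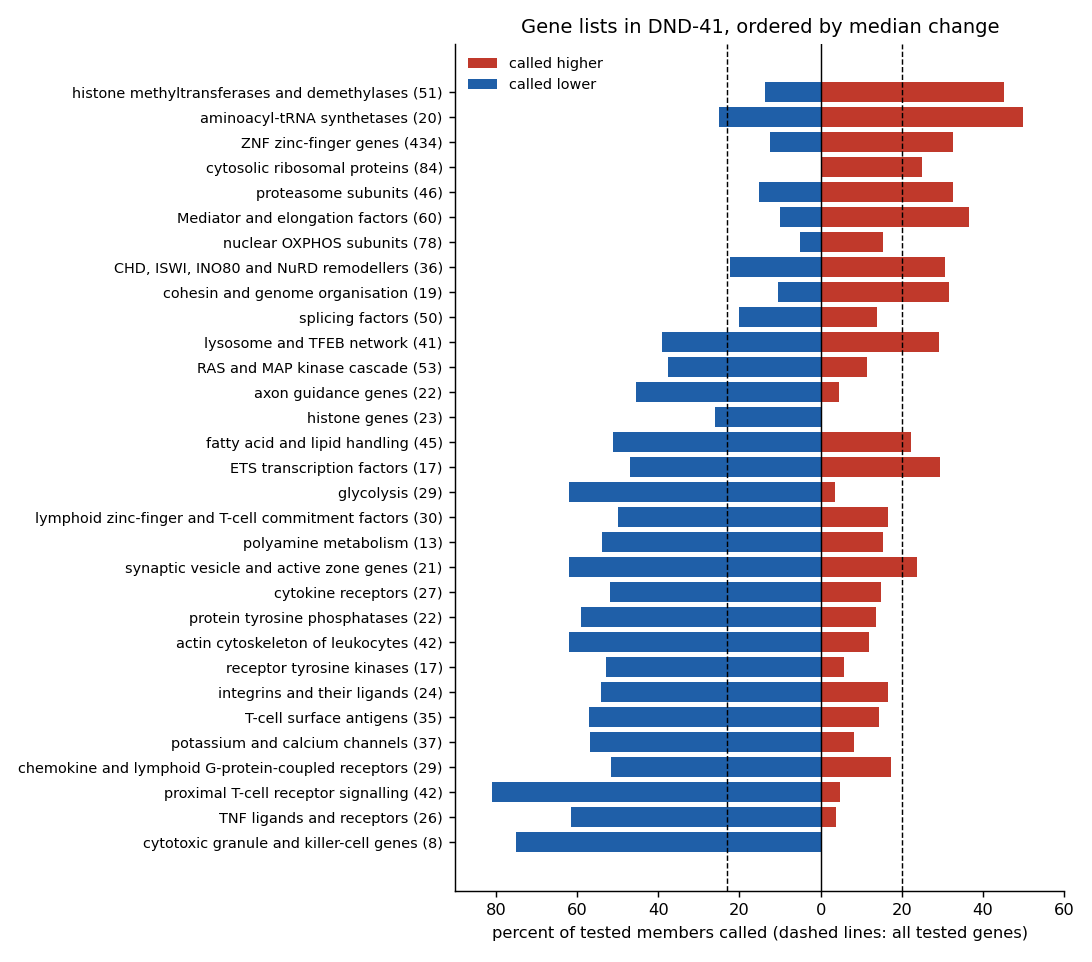
Percent of the tested members of 31 gene lists called higher (red, right) or lower (blue, left) in DND-41, ordered by the median change of the list, with the number tested in brackets and dashed lines at the 20% and 23.2% of all tested genes. Proximal T-cell receptor signalling reaches 81% called lower, and histone methyltransferases and demethylases reach 45.1% called higher.

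Among genes averaging at least 5 CPM, the largest rises included several with known roles in neurons. SYT11, a synaptotagmin of vesicle traffic, stood at 1.10 and 0.611 CPM with DMSO and at 17.1 and 14.98 with ACBI-1 (4.21 ± 0.20, adjusted p = 1.01e-09). BSN, the presynaptic scaffold bassoon, went from 9.06 and 8.96 to 57.0 and 73.7 CPM, and SYP, synaptophysin, from 6.76 and 6.31 to 25.2 and 25.5. The list of synaptic vesicle and active zone genes did not rise as a whole: of 21 tested, 13 fell and 5 rose, with a median of -0.27. GPR17, an orphan receptor of oligodendrocyte precursors, changed by 2.44 ± 0.17. VPS37C, a subunit of the ESCRT-I sorting complex, went from 5.31 and 5.65 to 30.8 and 32.7 CPM, and ZNF341, a zinc-finger factor, from 8.81 and 10.5 to 55.8 and 61.4.

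Among the largest falls were RASSF2, a RAS-association protein, from 23.7 and 21.5 to 2.85 and 2.24 CPM, and EMR2, an adhesion GPCR, from 22.4 and 23.5 to 2.49 and 2.38. PLCH1, a phospholipase C, went from 156 and 161 to 24.5 and 26.7 CPM. Some genes fell to a few counts. RTN4RL1, a Nogo receptor relative, had 19 and 13 counts with DMSO and 0 and 0 with ACBI-1, which is at least 5.40-fold lower when 3 counts per library are taken as the limit of a count of 0. SLC17A9, a vesicular nucleotide transporter, had 16 and 21 counts with DMSO and 1 and 1 with ACBI-1, and ARHGEF11, a guanine nucleotide exchange factor, had 28 and 23 against 1 and 3. Genes under clone, LOC, noncoding RNA, histone or pseudogene names were left out of this count. Of the rest, 12 called genes fell to 3 or fewer counts in both ACBI-1 libraries. No called rise of the rest started from 3 or fewer counts in both DMSO libraries.

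Falls of 2-fold or more were commoner among weakly expressed genes. The 5 classes were set by mean CPM over all 4 libraries, so a fall itself lowers a gene's level and a rise lifts it. Classes by DMSO level alone were not made. From the lowest to the highest class these falls made up 10.3%, 10.8%, 4.75%, 3.64% and 2.61% of the genes. Rises of 2-fold or more went from 4.93% in the lowest class to 0.321% in the highest. Calls of any size were fewer in the lowest class: 12.2% lower and 6.50% higher, against 26.8% and 27.0% in the highest. The median standard error was 0.37 in the lowest class and 0.06 in the highest. A change therefore had to be larger to be called in the lowest class. Among chromosomes, 19 had 25.0% of its tested genes higher and a median of 0.09.

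Some runs of neighbouring tested genes were called in 1 direction. The longest such run held 10 genes on chromosome 14, all higher, with a median of 1.31: 8 immunoglobulin heavy-chain V (IGHV) genes from IGHV3-13 to IGHV1-24, the clone-named gene AB019440.50 and the pseudogene HOMER2P2. IGHV segments are joined to D and J segments in B cells and are also transcribed from the unjoined locus. Leaving out orphons, the IGHV copies outside the locus, 37 IGHV genes were tested, of which 15 rose and 5 fell, and the summed level of all such genes went from 189 and 186 to 289 and 316 CPM. All 3 tested orphons rose. From IGHV1-3 to IGHV1-24, 10 of 11 rose and none fell. From IGHV4-28 to IGHV3-64, 1 of 20 rose and 5 fell. This division was made after the values were seen and is a description without a test. IGHV3-19 went from 31.1 and 34.7 to 79.9 and 93.8 CPM, IGHV1-3 from 19.97 and 17.7 to 57.3 and 50.8, and IGHV4-34 from 32.7 and 32.9 to 21.4 and 23.1. IGHV3-16 lost its call without ACBI-1 replicate 2. No heavy-chain constant, D or J gene was tested, and the kappa locus had no count. Segments share sequence, so the split of reads between them is uncertain.

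**Figure D4:**
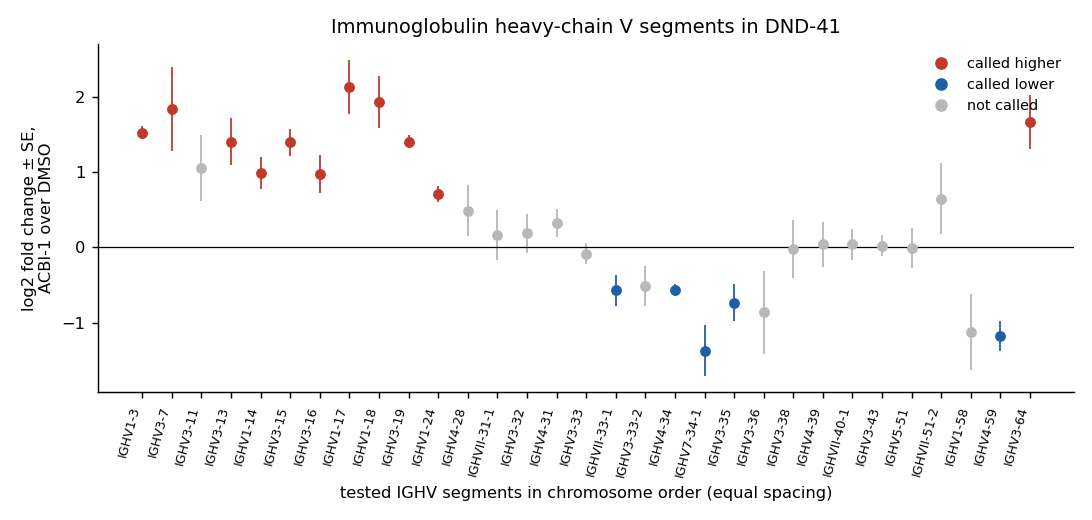
Log2 fold change with its standard error (vertical axis, ACBI-1 over DMSO) of the 31 of 37 tested IGHV segments of DND-41, orphons left out, that could be ordered on the chromosome, red where called higher, blue where called lower and grey otherwise. The first 11 segments all lie above 0, and the later ones scatter around it.

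None of the 6 longest runs kept every call under every alternative. On chromosome 17 a run of 8 genes fell, with a median of -1.23, including SLFN13, which went from 41.6 and 40.5 to 17.0 and 19.2 CPM, SLFN12L and SLFN12. The SLFN12 call ended without DMSO replicate 1 (-0.70) and with DESeq2 (-0.80), and 2 clone-named genes of the run also lost theirs under some alternative. SLFN11, close by, was at 97.2 and 104 CPM with DMSO and 109 and 112 with ACBI-1 and was not called (adjusted p = 0.0817), though it was called with the replicate block (0.14) and without ACBI-1 replicate 1 (0.16). Schlafen proteins act on transfer RNA and stalled replication. On chromosome 11 a run of 8 fell, with a median of -0.98, from NLRP6 to IFITM3, in which IFITM1, an antiviral membrane protein, went from 351 and 337 to 89.1 and 81.0 CPM, and 2 clone-named genes of the run lost their calls with DESeq2. On chromosome 6 a run of 7 fell, with a median of -0.74, holding HLA-C, HLA-B, MICA and MICB, and 1 clone-named gene at its end lost its call without DMSO replicate 1 and with DESeq2. MICA, a stress ligand of the receptor NKG2D, changed by -1.73 ± 0.16, and HLA-C by -0.28 ± 0.06. Schlafen, IFITM and HLA genes have close copies, so their counts are uncertain.

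Runs of 7 rises lay on chromosome 1, from DEDD to FCER1G (median 0.31), and on chromosome 3, from FBXO45 to NCBP2 (median 0.46). USP21, PPOX, B4GALT3 and FCER1G on chromosome 1 and PAK2 and SENP5 on chromosome 3 each lost the call on leaving out at least 1 library. FCER1G changed by 0.71 ± 0.25 at 1.502 and 1.476 CPM with DMSO and 2.29 and 2.58 with ACBI-1, and it was called neither without ACBI-1 replicate 2 (0.62), nor without DMSO replicate 1 (0.71) or 2 (0.69). Over protein-coding neighbours with starts 1001 to 100000 bp apart, 271 of 733 partners of a gene that fell 2-fold or more also fell (37.0%) and 159 rose (21.7%). With starts over 100000 bp apart the shares were close to these, 236 of 662 (35.6%) falling and 127 rising. Over all tested protein-coding genes 25.8% fell. Divergent partners with starts within 1000 bp of such a gene fell in 16 of 40 cases and rose in 11. Gene order came from another build by gene identifier.

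Promoter windows of 250 bases before to 50 after the start were found in RefSeq for 9910 of the tested genes, and 11 motifs were searched on both strands. They were RUNX (TGTGGT), ETS (CCGGAAGT), the GC box of SP and KLF factors (GGGCGG), the TATA box (TATAAA), AP-1 (TGACTCA), the E-box of E proteins (CAGCTG), CRE (TGACGTCA), CCAAT, NRF1 (GCGCATGCG), EGR (GCGTGGGCG) and the CArG box of serum response factor. The CArG box was added after the first 10 were found absent from the EGR1 window. The ETS motif was in 9.49% of all these promoters, in 2.62% (16 of 611) of those of genes that fell 2-fold or more, in 3.16% (5 of 158) of those that rose 2-fold or more and in 10.7% of those not called. The NRF1 motif was in 4.02% of all, in 2 of 611 falls, of which CXCR4 is 1, and in 7 of 158 rises. The GC box was in 69.7% of all, 68.6% of the falls and 61.4% (97 of 158) of the rises. By mean CPM over the 4 libraries its share differed. Under 10 CPM it was in 63.6% of all and 61.5% of the falls. At 10 to 100 CPM the shares were 71.7% and 77.3%, and at 100 CPM or more 72.9% and 81.6% (31 of 38). RUNX was in 9.45% of all, 12.3% of the falls and 12.03% of the rises. CArG boxes were in 1.04% of all. CCAAT was in 37.2% of all, 29.95% of the falls and 26.6% of the rises, and the E-box in 16.8%, 20.29% and 20.25%. TATA was in 5.15% of all, 6.06% of the falls and 6.33% of the rises, and AP-1 in 2.76%, 4.09% and 3.80%. CRE was in 3.36% of all, 2.13% of the falls and 3.16% of the rises, and EGR in 1.32%, 2.45% and 1.27%. These are shares without a test, and since level and direction are linked, the ETS share was also taken by level: under 10 CPM, where 348 of the 611 falls lay, it was 5.59% of all and 3.16% of the falls, at 10 to 100 CPM 11.04% and 2.22%, and at 100 CPM or more 10.8% and 0 of 38.

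In the promoters printed above, positions are counted from 0 at the gene's start. EGR1 held CArG boxes at -105 and -83. CXCR4 held GC boxes at -135, -130 and -70, an NRF1 match at -59 that overlaps its reverse at -58, and TATA matches at -32 and -30 that also overlap. SYT11 held a RUNX match at -239, and CORO1A held GC boxes at -246, -69 and -50. A match is a run of letters and not a measured binding site.

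Set against MOLT-4, most large falls of DND-41 were shared. In MOLT-4 2948 of 14239 tested genes rose (20.7%) and 3477 fell (24.4%), and the lines share no control libraries. Of the 898 genes that fell 2-fold or more in DND-41, 709 were tested in MOLT-4, where 616 fell and 10 rose. Of the 278 that rose 2-fold or more, 214 were tested, where 124 rose and 7 fell. The difference in effect itself was tested over all 8 libraries: 956 of 15498 genes (6.17%) had a higher effect in DND-41 and 1112 (7.18%) a lower one, so 46.2% of the calls were higher. Under library size alone 73.9% of the calls were higher, with a shift of 0.12 in the median difference. In the authors' deposited MOLT-4 table, none of the 6425 genes called in MOLT-4 here had the sign of ACBI-1 over DMSO, so direction was taken from the counts.

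Among the named genes that moved apart, ITGAE and ID3 rose in DND-41 and fell in MOLT-4, at -0.34 and -0.58 there, with differences of 1.82 and 1.92. STAT5A fell in DND-41 and was not called in MOLT-4 (0.07), a difference of -1.996. ETS1, the founding ETS factor, fell from 187 and 183 to 105 and 108 CPM in DND-41 and rose in MOLT-4 (0.48), a difference of -1.29. TERT, the catalytic subunit of telomerase, fell from 12.8 and 11.3 to 4.73 and 5.30 CPM in DND-41 and rose in MOLT-4 (0.58). CHD4 changed by -2.10 in DND-41 and by -1.997 in MOLT-4, and the difference was not called (-0.12, adjusted p = 0.38). The difference was tested over the whole table, and all of these genes but TERT were picked for this comparison after their values were seen.

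**Figure D5:**
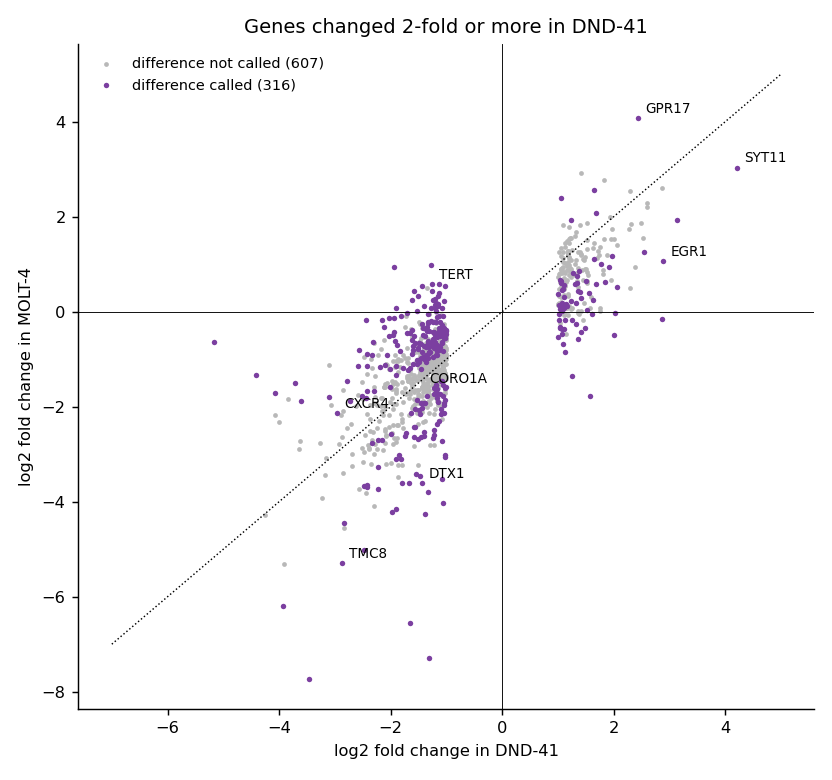
Log2 fold change in MOLT-4 (vertical axis) against that in DND-41 (horizontal axis) for the genes called and changed 2-fold or more in DND-41 and tested in MOLT-4, purple where the difference between the lines was called (316) and grey where it was not (607). The dotted line marks equal change, and TERT lies to the left of 0 with a MOLT-4 value of 0.58.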

How the data were processed

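Total RNA of DND-41 and MOLT-4 cells was read as strand-specific paired-end libraries of 100 bp, per the labels' protocols, and all 8 libraries were mapped to 4 groups of 2 by their labels. STAR 2.5.2a, featureCounts, DESeq2 1.12.4 and the hg19 build appear in the submitters' processing notes, which give no order. The deposited values are raw whole-number counts per gene. Which annotation and strand setting the counting used is not given in the sources used here, so reads of overlapping or antisense genes may not be separated. The authors also deposited tables of log2 fold changes with standard errors, of p-values and adjusted p-values, and of scores (the mean normalized count and the statistic of the test), per the file headers. These tables were used only where they are named.

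Low genes were removed by filterByExpr (minimum count 10), libraries were scaled by TMM, and genes were tested with edgeR 4.0.16 in R 4.3.3 in the 4 DND-41 libraries by the quasi-likelihood F test with no covariate beside treatment. Adjusted p-values follow Benjamini and Hochberg over all genes tested, and a standard error is the size of the log2 fold change over the root of F. The difference between lines was the interaction over all 8 libraries. The tests were tried on simulated counts first. GENCODE 29 (gene type and order) was joined by gene identifier, and no coordinates from it are given. Tables and plots used Python 3.11.15, numpy 2.4.6, pandas 2.3.3 and matplotlib 3.10.9.

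There were 48 gene lists and 24 families of genes sharing a symbol stem. Coding families were restricted to protein-coding genes after their values were seen. The comparison, lists and naming rule were chosen with earlier results of these data known. The rule takes the degrader targets, the 20 largest rises and 20 largest falls at 5 CPM or more, up to 3 rises and 3 falls of smallest adjusted p per list, every member of a list with 12 or fewer tested, the 10 largest differences in CPM each way, the 10 largest falls to and rises from 3 or fewer counts, the 8 largest differences between lines of each sign and the members of the 6 longest runs. It took 489 genes. Another 32 were chosen after their values were seen, among them TNF, LTA, LTB, TNFSF8, CD70, STAT5A, CCR7, S1PR4, CD1C, VAV1, ZAP70, ETS1, SLFN11, IGHV1-3 and IGHV4-34. The stability counts cover all 521, a few of which are not reported here.

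Alternatives were scaling by library size alone or by DESeq2-type size factors, a minimum count of 30 or no filter, a threshold of 0.01, DESeq2 1.42.0, fitting all 8 libraries together, a replicate block and leaving out each library in turn. With a library left out, the lone library of its group is assumed to vary like the others. Replicate numbers were not taken as pairs, because the labels do not state that they mark one. The deviations of same-numbered libraries had r = 0.084. With 2 libraries a group this is 1 value and cannot settle whether they were paired.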

Additional observations from a re-analysis of the deposited data

Results flagged for a closer look

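The following differences between the lines were taken because the test of the difference itself was passed. The first 16 genes are the 8 largest differences of each sign at a mean of 5 CPM or more in each line, and 4 more were chosen after their values were seen. Other genes also passed. All values are the log2 effect in DND-41 minus that in MOLT-4, and all 20 were called under every alternative run for the difference.

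In 8 genes the effect was higher in DND-41. SEMA7A, a membrane-anchored semaphorin, had the largest difference, 4.64 ± 0.22 (adjusted p = 1.08e-10): it changed by -4.92 in MOLT-4 and by -0.27 in DND-41, from 71.2 and 73.6 to 56.5 and 63.9 CPM. The DND-41 change of SEMA7A lost its call without DMSO replicate 2 (-0.24). DDIT4, an inhibitor of mTOR complex 1, rose in DND-41 (0.75) and fell in MOLT-4 (-2.44), a difference of 3.17. RASGRP2, a RAP exchange factor, overlapped between the groups in DND-41, at 79.8 and 70.9 CPM with DMSO and 75.8 and 70.5 with ACBI-1, and its difference was 2.80. The protocadherin DCHS1 also overlapped in DND-41 and had a difference of 2.46. TMC8 fell in both lines, by more in MOLT-4, with a difference of 2.41. CAMKK1, a kinase of the calmodulin cascade, had 2.20. DTX1, a regulator of NOTCH signalling, and the glucose carrier SLC2A3 had 2.15 each. The DND-41 call of SLC2A3 (-0.30) was lost without ACBI-1 replicate 2 (-0.24), without DMSO replicate 1 (-0.32), without DMSO replicate 2 (-0.28) and with DESeq2.

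In another 8 genes the effect was lower in DND-41, and each of them rose in MOLT-4. XYLB, a xylulokinase, had a difference of -1.998, TERT of -1.87, and the arrestin-domain gene ARRDC4 and DENND2D, a RAB exchange factor, of -1.85 each. RDH10, a retinol dehydrogenase, had -1.78. RASA3, a RAS GTPase-activating protein, had -1.74, with a change of -0.42 in DND-41 and 1.303 in MOLT-4. TBC1D2B had -1.67, and its DND-41 change (-0.17, adjusted p = 0.0483) lost its call without ACBI-1 replicate 1 (-0.12), without DMSO replicate 1 (-0.16), without DMSO replicate 2 (-0.19) and under 3 other settings. C6orf223 had -1.66.

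The 4 genes chosen after their values were seen were ITGAE (1.82), ID3 (1.92), STAT5A (-1.996) and ETS1 (-1.29).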

How the results depend on the processing

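Over 2807 higher and 3249 lower calls in DND-41, the higher count moved by more than 1.5 times at a threshold of 0.01 (1838) and with DESeq2 (1719), and it ran from 1745 to 3044 on leaving out a library, lowest without DMSO replicate 1 and at 1817 without DMSO replicate 2. The lower count stayed within 1.5 times under every alternative and ran from 2556 to 3499 on leaving out a library. For the difference between lines, the higher count of 956 was 559 at a threshold of 0.01 and 637 with DESeq2, and ran from 621 to 989 on leaving out a library, lowest without MOLT-4 ACBI-1 replicate 1. The lower count of 1112 was 619 at a threshold of 0.01, 668 with DESeq2 and 499 under library size alone, and ran from 699 to 1207, lowest without MOLT-4 DMSO replicate 2. The cause was not tested.

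With the replicate block the counts were 3297 and 3579 in DND-41 and 1181 and 1398 for the difference, none moved by over 1.5 times. The labels do not state whether equal replicate numbers mark a pair, and 2 libraries a group cannot settle it.

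No called value changed direction. Of 521 named genes, 68 lost their call under at least 1 alternative, 60 of them on leaving out a library (45 without DMSO replicate 1, 34 without DMSO replicate 2) and 38 with DESeq2, and 10 gained one. Of 213 named genes called at 2-fold or more, 8 lost the call. Among 72 list medians 49 moved by more than their spread over pairs of libraries under some alternative, 45 of them on leaving out a library. The largest move was 0.57, for potassium channel genes (-0.48, and -1.05 without ACBI-1 replicate 2). 21 medians changed sign, each of them 0.104 or less in size. Genes under about 0.15 CPM are at the limit of these depths.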
